A study of Homo sapiens with 6 samples.

Results

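Expression of 9 genes that carry pyruvate into the mitochondrion's tricarboxylic acid (TCA) cycle and around it was examined in SK-OV3 cells after silencing of PVT1. The genes were PDHA1, PC, CS, IDH2, IDH3A, OGDH, SUCLG1, FH and MDH2, chosen by symbol, and all 9 were found among the 59653 genes of the count table. SK-OV3 is a human ovarian cancer cell line, given in the labels as SKOV3 with a wildtype genotype, and its cells do not express p53. Cells in full serum were transfected with a pool of siRNAs against the lncRNA PVT1 (siPVT1, 3 libraries) or with a non-targeting pool (siControl, 3 libraries), and RNA was taken after 48 h. The groups share the cell line, the transfection reagent and the time. They stand for 1 cell line and 1 pool against PVT1, so an effect of the pool apart from PVT1 cannot be told apart from one of lower PVT1, and nothing says that the replicates came from separate cultures, so p-values measure only the spread between these libraries.

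In the mitochondrion, pyruvate has 2 main ways into the cycle. The pyruvate dehydrogenase complex, whose E1 alpha subunit is PDHA1, turns it into acetyl-CoA, and pyruvate carboxylase (PC) turns it into oxaloacetate. Citrate synthase (CS) joins these products into citrate, isocitrate dehydrogenases (IDH2 with NADP, the complex of IDH3A with NAD) make 2-oxoglutarate, the complex of OGDH makes succinyl-CoA, and SUCLG1 is the subunit shared by both succinyl-CoA ligases. Fumarase (FH) and malate dehydrogenase (MDH2) close the circle to oxaloacetate. The cycle feeds the respiratory chain, and its intermediates are also drawn off for fatty acid and amino acid synthesis in growing cells.

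The total count ranged from 28383171 to 35059576 per library. Values below are normalized counts, that is counts divided by a library's TMM-scaled size, and a gene was taken to have changed at a Benjamini-Hochberg adjusted p under 0.05 over the 19008 genes tested with edgeR's quasi-likelihood test. Genes with a log2 fold change of at least 1 in size as well are said to be past both thresholds, which are those of the study's methods. PVT1 was lower in siPVT1, with a mean of 2169 ± 153 against 3579 ± 435 (SD, n = 3 each; log2 fold change −0.72, edgeR adjusted p = 0.000342), and MYC was at −1.01 (edgeR adjusted p = 3.7e-06). Over all genes tested, 29.5% rose and 28.4% fell. Of 8 ovarian carcinoma and epithelial markers, 4 rose, 2 fell and 2 did not pass the test. By the mean over all 6 libraries, KRT18 was the highest and EPCAM the lowest. KRT18 had between 7928 and 11347 normalized counts and EPCAM between 41.2 and 127, and the summed level of the list ranged from 20521 to 22906 in siControl and from 28116 to 31338 in siPVT1. Of 8 markers of other cell types, CD3E was at 0 in every library and PTPRC and DCN had at most 3 counts. The endothelial cadherin CDH5, the highest of them, rose from 1993 ± 7.07 to 9289.8 ± 1106 (SD, n = 3 each; edgeR adjusted p = 1.27e-06). PECAM1 and PDGFRB also rose, so that 3 of the 8 were higher, while CD68 and LUM did not pass the test, and the summed level of the list went from between 2700.3 and 2731 in siControl to between 9395 and 11954 in siPVT1. The part of these markers in the results on the cycle was not tested.

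Of the 9 genes, 3 rose (IDH2, PC and MDH2), 3 fell (IDH3A, FH and CS) and 3 did not pass the test (PDHA1, OGDH and SUCLG1). Over all genes tested, 29.5% rose and 28.4% fell, 57.9% in all, so the share of members that changed, 6 of 9, was near that of the table. Only IDH2 was past both thresholds as higher, where 11.8% of all genes were, and no member was past both as lower, where 9.64% were (21.5% in either direction). The lowest log2 fold change of the members was −0.89, so this count of 0 was set by the fold threshold at any p. It also held in DESeq2, but was 1 (IDH3A) with scaling by the total count or without siPVT1 replicate 3. The median change of the 9 genes was 0.13 on the log2 scale, against 0.001 over the table. In 7 of the 9 genes the siPVT1 libraries did not overlap with the siControl libraries, against 65.6% of all genes. Summed over the 9 genes, normalized counts ranged from 20386 to 21759 in siControl and from 20499 to 21975 in siPVT1, ranges that overlap. As a share of the counts of a library before normalization, they took from 0.0710% to 0.0731% in siControl and from 0.0628% to 0.0669% in siPVT1, ranges that do not overlap. The normalized sums and these shares differ by the TMM factor of each library. This factor ran from 1.03 to 1.09 in siControl and from 0.945 to 0.958 in siPVT1. In bulk RNA, fewer cells that express a gene and less of its RNA per cell cannot be told apart.

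**Figure D1:**
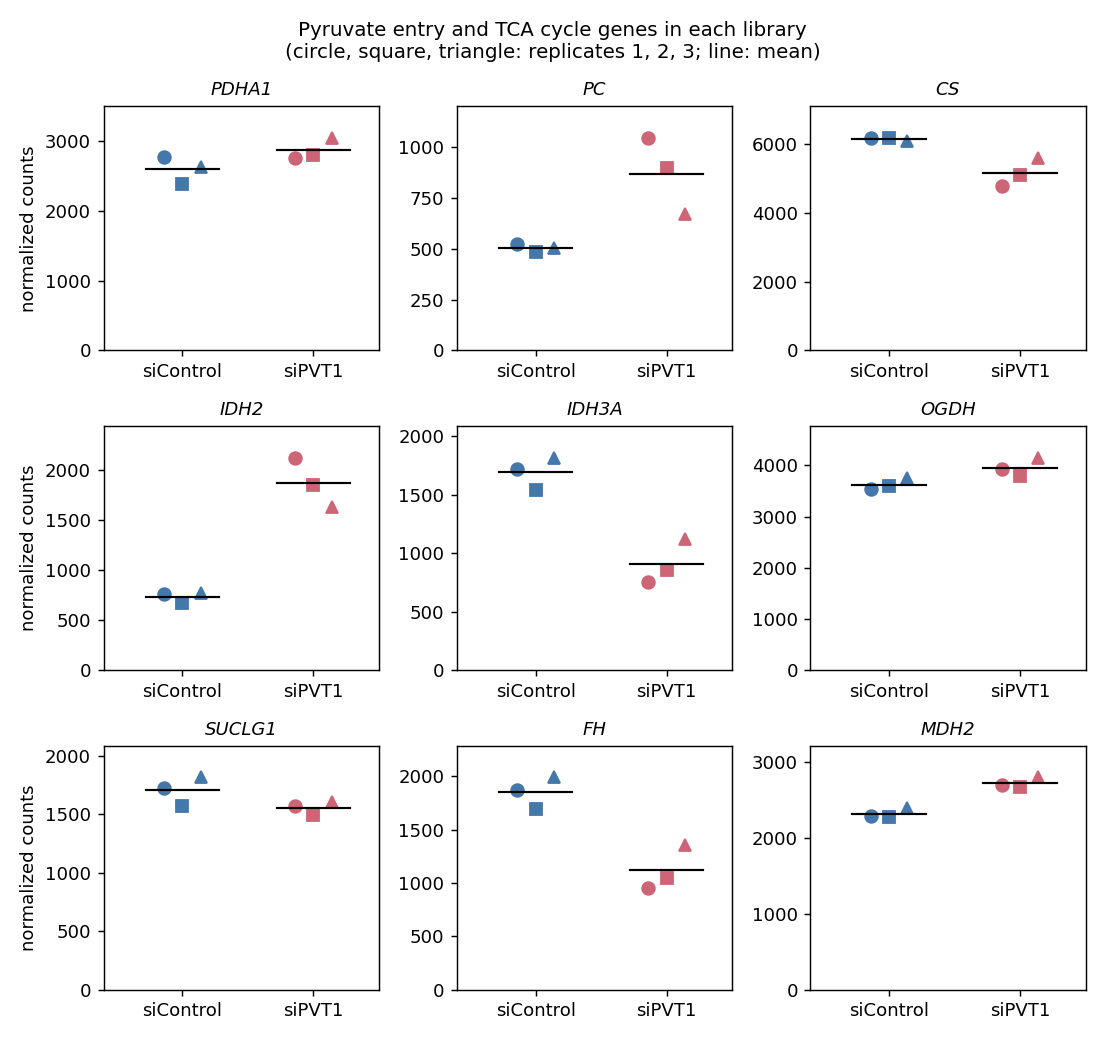
Normalized counts (y axis, from 0) of each of the 9 genes in the 3 siControl (blue) and 3 siPVT1 (red) libraries, with the mean as a line and a symbol for each replicate number. IDH2 and PC lie higher in each siPVT1 library, IDH3A, FH and CS lie lower, and PDHA1 and SUCLG1 overlap between the groups.

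By the annotation of GENCODE v44 on GRCh38, the 9 genes are protein-coding and lie on 7 chromosomes. The genes that rose are IDH2 (chr15:90083045-90102477, minus strand), PC (chr11:66848417-66958386, minus) and MDH2 (chr7:76048051-76067508, plus), and those that fell are IDH3A (chr15:78131498-78171945, plus), FH (chr1:241497511-241519799, minus) and CS (chr12:56271699-56300391, minus). PDHA1 is at chrX:19343893-19361718 (plus), OGDH at chr7:44606572-44709066 (plus) and SUCLG1 at chr2:84423528-84460045 (minus).

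Stretches before the start sites of 5 genes that changed are shown so that those of genes that rose and of genes that fell can be read side by side. They are taken from RefSeq on GRCh38.p14, which held 8 of the 9 genes (all but OGDH), and each runs from 250 to 71 bases before the start, on the strand of the gene. The window of IDH3A is chr15:78149112-78149291 (plus strand), FH at chr1:241519826-241520005 (minus), CS at chr12:56300401-56300580 (minus), PC at chr11:66958454-66958633 (minus, the outermost of the 3 starts listed for it) and MDH2 at chr7:76047856-76048035 (plus). The window of IDH3A lies inside the annotated gene, before the start of its canonical transcript, since other transcripts start further upstream, and so does that of SUCLG1, which is counted below. The other 2 windows of PC lie inside the gene as well and held none of the motifs searched. The window listed for IDH2 lies inside the gene past the start of the canonical transcript and takes in 4 exonic bases. It is not shown but is counted below, and held none of the motifs searched. The stretch before the canonical start of IDH2 was not searched. Capitals mark the GC box core GGGCGG, the CCAAT box CCAAT, the ETS core CCGGAA and the letters ACGTG, each on either strand.
IDH3A (fell): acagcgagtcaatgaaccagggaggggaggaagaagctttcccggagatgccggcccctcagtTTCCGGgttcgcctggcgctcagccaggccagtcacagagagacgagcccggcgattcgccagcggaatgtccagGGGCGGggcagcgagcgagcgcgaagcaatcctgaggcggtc
FH (fell): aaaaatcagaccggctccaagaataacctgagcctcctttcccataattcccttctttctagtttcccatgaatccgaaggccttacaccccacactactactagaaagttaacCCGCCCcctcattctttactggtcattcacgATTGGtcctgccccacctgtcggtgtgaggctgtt
CS (fell): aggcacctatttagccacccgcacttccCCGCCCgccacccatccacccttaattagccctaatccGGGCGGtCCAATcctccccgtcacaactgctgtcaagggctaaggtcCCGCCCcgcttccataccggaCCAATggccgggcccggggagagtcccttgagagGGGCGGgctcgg
PC (rose): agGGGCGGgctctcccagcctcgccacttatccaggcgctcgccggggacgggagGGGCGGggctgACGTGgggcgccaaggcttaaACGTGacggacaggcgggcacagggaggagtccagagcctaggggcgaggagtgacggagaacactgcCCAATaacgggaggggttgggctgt
MDH2 (rose): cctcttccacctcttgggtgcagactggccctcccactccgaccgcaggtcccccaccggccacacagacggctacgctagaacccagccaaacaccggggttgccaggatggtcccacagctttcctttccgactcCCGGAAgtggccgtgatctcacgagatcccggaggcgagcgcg

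GGGCGG was present in the windows of 5 of the 8 genes and of 31.3% of the 35116 RefSeq windows of this length, and CCAAT in 4 of 8 and 23.9%. The first count is by gene, and PC has several windows, while the share is by window, so they are not like measures. CCGGAA was found in IDH3A and MDH2, a gene that fell and a gene that rose, and in 8.55% of all windows. ACGTG, which is contained in the hypoxia response element, was found only in the outermost PC window among the 8 genes, in 2 places, and in 12.7% of all windows. CACGTG, the E-box bound by MYC and MAX, which contains ACGTG, was in none of the 8 and in 3.80% of all windows, and GCATGCG, a part of the NRF1 motif, in none and in 1.82%. These are matches of letters in a short window and say nothing about whether a factor binds there.

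At the entry of pyruvate, PC was higher after silencing of PVT1. Here and below values are given in the order of replicates 1, 2 and 3. PC had 522, 487 and 504 normalized counts in siControl and 1046, 897 and 672 in siPVT1. Each siPVT1 library was above each siControl library, and the siPVT1 libraries spread more widely. The log2 fold change was 0.79 (standard error 0.149, edgeR adjusted p = 0.00222), below the fold threshold. On the opposite strand, 621 bases of the exons of PC (8.5% of them) overlap with those of LRFN4, which had up to 653 counts in a library, where PC had at least 483. LRFN4 was at a log2 fold change of −0.47 (edgeR adjusted p = 0.00111), the other direction, and without a stated strand setting the division of reads between them is uncertain.

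PDHA1 did not pass the test. It had 2771, 2382 and 2635 normalized counts in siControl and 2762, 2796 and 3044 in siPVT1, with siPVT1 replicate 1 below siControl replicate 1. Its log2 fold change was 0.14 with a 95% interval from −0.03 to 0.32 (edgeR adjusted p = 0.137), which leaves room for a small rise. PDHB, the E1 beta subunit that pairs with PDHA1, rose from 1732 ± 87.6 to 2416 ± 178 (SD, n = 3 each; log2 fold change 0.48, edgeR adjusted p = 0.000783). DLAT, the E2 core, fell from 3039.8 ± 99.6 to 2287 ± 390.4 (log2 fold change −0.41, edgeR adjusted p = 0.0147) and DLD, the E3 subunit, was at −0.27 (edgeR adjusted p = 0.0167), a call lost without siControl replicate 1 or 3 (edgeR adjusted p = 0.0608 and 0.0591). PDHX, which tethers E3, was at 0.03 (edgeR adjusted p = 0.669). In counts, the ratio of PDHB to DLAT was 0.566, 0.556 and 0.586 in siControl and 1.17, 1.07 and 0.963 in siPVT1, without overlap.

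Most genes that regulate the complex by phosphorylation were higher. Of 7 pyruvate dehydrogenase kinases, phosphatases and their regulator, 6 rose and 4 of these were past both thresholds, where 29.5% and 11.8% of all genes tested were, with a median log2 fold change of 1.13. The kinases switch the complex off. PDK1 had 751, 733 and 749.9 normalized counts in siControl and 2473, 2327 and 2176 in siPVT1. These lay far apart, at a log2 fold change of 1.64 (standard error 0.0696, edgeR adjusted p = 1.45e-06). PDK3 was at 1.13 (edgeR adjusted p = 8.52e-06), PDK2 at 0.64 (edgeR adjusted p = 0.00113), and PDK4, with only 7.41 ± 2.44 normalized counts in siControl and 39.8 ± 10.5 in siPVT1 (SD, n = 3 each), at 2.41 (edgeR adjusted p = 0.000538). The phosphatases switch the complex on again. PDP1 rose as well, from 4332 ± 147 to 12944 ± 931 normalized counts (SD, n = 3 each; log2 fold change 1.58, edgeR adjusted p = 1.64e-06). PDP2 did not pass the test (log2 fold change 0.13, edgeR adjusted p = 0.328). Thus all 4 kinases and the phosphatase PDP1 rose. Of the 2 subunits of the mitochondrial pyruvate carrier, MPC1 was at −0.40 (edgeR adjusted p = 0.0319), a call lost without siControl replicate 1 or 3 (edgeR adjusted p = 0.113 and 0.0845) or siPVT1 replicate 1 (edgeR adjusted p = 0.0631), and MPC2 at 0.15 (edgeR adjusted p = 0.226).

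CS, the enzyme that starts the cycle, fell by a small amount. It had 6165, 6166 and 6081 normalized counts in siControl and 4786, 5101 and 5589 in siPVT1. All siPVT1 libraries lay below the siControl ones, and siPVT1 replicate 3 was nearest to them. The log2 fold change was −0.25 (standard error 0.0676, edgeR adjusted p = 0.0128).

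The genes with the highest and the lowest log2 fold change of the 9 both act at the oxidation of isocitrate. IDH2 had 759.8, 670.0 and 769 normalized counts in siControl and 2125, 1853 and 1635 in siPVT1. The groups lay far apart, and the log2 fold change of IDH2, 1.35, was the largest of the 9 (standard error 0.108, edgeR adjusted p = 2.26e-05). IDH3A, the catalytic subunit of the NAD-dependent enzyme, had 1721, 1544 and 1817 in siControl and 749.7, 857 and 1126 in siPVT1. It fell in each siPVT1 library, and its log2 fold change of −0.89 was the lowest of the 9 (standard error 0.143, edgeR adjusted p = 0.000901). ACSBG1 and IDH3A share 2608 exonic bases on opposite strands, and ACSBG1 had at most 8 counts in any library. The ratio of IDH2 to IDH3A was 0.442, 0.434 and 0.423 in siControl and 2.83, 2.16 and 1.45 in siPVT1. The difference in the mean log2 ratio was 2.26. This pair was chosen for the opposite directions of its genes, so that the separation of the ratio was fixed by the choice and is given as a description.

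The subunits of the NAD-dependent enzyme did not move as a unit. IDH3G, a regulatory subunit, rose from 931 ± 99.8 to 1399 ± 30.9 (SD, n = 3 each; log2 fold change 0.59, edgeR adjusted p = 0.000603). IDH3B was at −0.19 (edgeR adjusted p = 0.0463), close to the threshold, and lost its call without siControl replicate 1 or 3 (edgeR adjusted p = 0.151 and 0.136) or siPVT1 replicate 2 (edgeR adjusted p = 0.0671). The ratio of IDH3G to IDH3A changed from 0.568, 0.529 and 0.550 in siControl to 1.91, 1.60 and 1.24 in siPVT1. IDH1, the cytosolic enzyme that uses NADP as IDH2 does, rose from 2436 ± 32.9 to 4914 ± 264 (SD, n = 3 each; log2 fold change 1.01, edgeR adjusted p = 6.08e-06). The NADP-dependent pair was thus higher in siPVT1, while 2 of the 3 subunits of the NAD-dependent enzyme were lower.

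**Figure D2:**
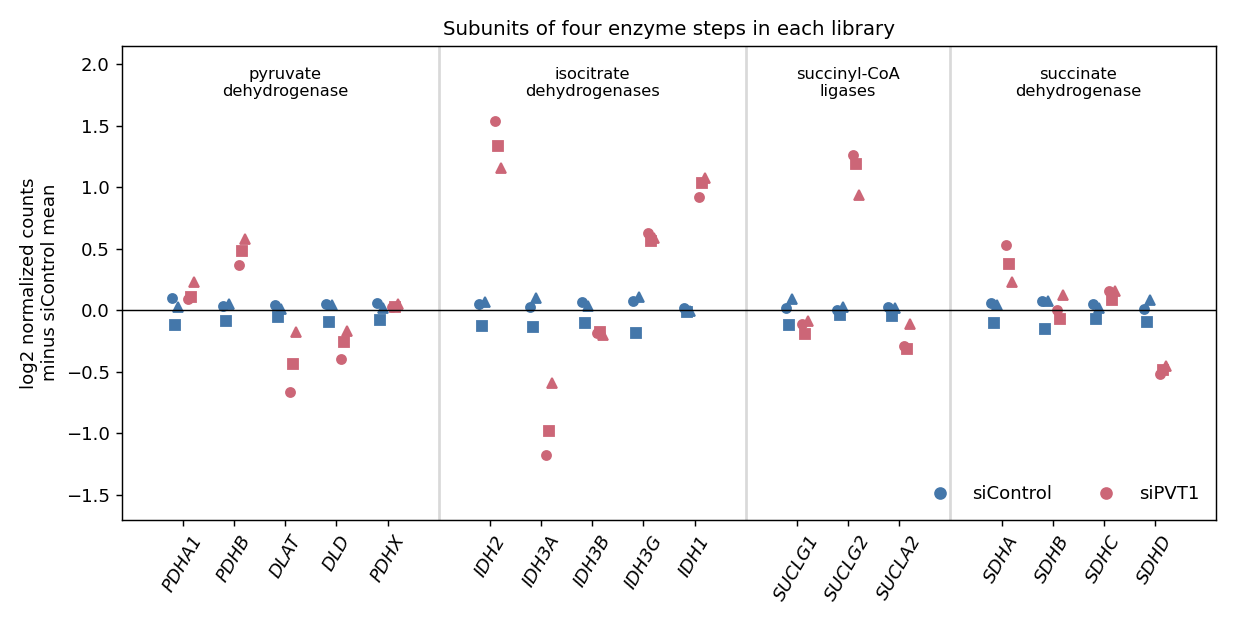
Log2 normalized counts of genes of 4 enzyme steps, each minus its siControl mean (y axis), in siControl (blue) and siPVT1 (red) libraries. Symbols are as for the plot of the 9 genes. IDH2 and the cytosolic IDH1 are enzymes of their own, not subunits of the complex of IDH3A. Within each step some genes lie above and others below the siControl level, with IDH2 and SUCLG2 highest and IDH3A lowest in siPVT1.

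Further along the cycle, OGDH and SUCLG1 did not pass the test. OGDH had 3532, 3592 and 3756 normalized counts in siControl and 3938, 3789 and 4152 in siPVT1. The groups did not overlap, but the log2 fold change was 0.13 with a 95% interval from −0.01 to 0.27 (edgeR adjusted p = 0.105). DLST, the E2 subunit of the same complex, was at −0.03 (edgeR adjusted p = 0.802). SUCLG1 had 1726, 1569 and 1816 in siControl and 1574, 1492 and 1603 in siPVT1, with overlapping groups, and a log2 fold change of −0.13 with a 95% interval from −0.30 to 0.04 (edgeR adjusted p = 0.162).

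The subunits that pair with SUCLG1 parted. SUCLG2, which makes the GTP-forming ligase, had 993, 966 and 1012 normalized counts in siControl and 2372, 2254 and 1897 in siPVT1. It rose in each library, with a log2 fold change of 1.13 (standard error 0.0903, edgeR adjusted p = 2.26e-05). SUCLA2, which makes the ATP-forming ligase, was at −0.24 (edgeR adjusted p = 0.0252), a call lost without siControl replicate 1 or 3 (edgeR adjusted p = 0.0791 and 0.0788) or siPVT1 replicate 2 (edgeR adjusted p = 0.0715). The ratio of SUCLG2 to SUCLA2 was 0.753, 0.768 and 0.769 in siControl and 2.23, 2.16 and 1.58 in siPVT1. At succinate dehydrogenase, which is also complex II of the respiratory chain, the flavoprotein SDHA was at 0.38 (edgeR adjusted p = 0.00582) and the membrane anchor SDHD at −0.48 (edgeR adjusted p = 0.000368), while SDHB and SDHC did not pass the test. Of its 4 assembly factors, 3 fell, and SDHAF4 rose, with a log2 fold change of 1.12 (edgeR adjusted p = 0.000231). Over all genes tested, 28.4% fell and 29.5% rose.

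The 6 ratios of pairs that were set side by side (PDHB to DLAT, IDH2 to IDH3A, IDH3G to IDH3A, IDH2 to IDH1, SUCLG2 to SUCLA2 and SDHA to SDHD) were chosen after the values of the genes were seen. They are descriptions. An exact permutation test over libraries gave p = 0.1 for each, the smallest value possible for 3 against 3. With pairs chosen in this way, no conclusion is drawn from it. Differences in the log2 ratio ran from 0.34 for IDH2 to IDH1 to 2.26 for IDH2 to IDH3A. The ratio of IDH2 to IDH1 was 0.307, 0.278 and 0.317 in siControl and 0.460, 0.372 and 0.318 in siPVT1. For this pair the groups all but met.

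FH and MDH2, the last enzymes before oxaloacetate, went opposite ways. FH, which makes malate from fumarate, had 1874, 1696 and 1990.0 normalized counts in siControl and 953, 1049 and 1355 in siPVT1. Each siPVT1 library was lower, siPVT1 replicate 3 least so, and the log2 fold change was −0.73 (standard error 0.130, edgeR adjusted p = 0.00164). MDH2, which oxidises malate, had 2294, 2281 and 2391 in siControl and 2699, 2666 and 2799 in siPVT1. The difference was small and even across libraries, with a log2 fold change of 0.23 (standard error 0.0564, edgeR adjusted p = 0.00832). When libraries were scaled by the total count alone, MDH2 was at 0.08 and lost its call (edgeR adjusted p = 0.227), and SUCLG1 was at −0.28 and gained one (edgeR adjusted p = 0.0055). With that scaling the median over the table moved from 0.001 to −0.15, and of the genes with an adjusted p under 0.05, 39.4% were higher in place of 51.0%.

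The siPVT1 libraries differed in how far they lay from siControl. Among the 6 members that changed, siPVT1 replicate 3 was nearest to the siControl mean for 5, and siPVT1 replicate 1 was farthest for the same number. The exception was MDH2, for which replicate 2 was nearest and replicate 3 farthest. PVT1 itself had 2344, 2105 and 2057 normalized counts in siPVT1 replicates 1, 2 and 3. It was thus lowest in replicate 3 and highest in replicate 1. Whether the level of PVT1 bears on these distances was not tested. Over all genes, the chi-square per degree of freedom between replicates was from 1.79 to 6.20 in siControl and from 9.44 to 50.5 in siPVT1, where a value of 1 would be counting error alone. Replicates thus differed beyond counting error, which does not show whether they came from separate cultures. Without siPVT1 replicate 3, IDH3A was at −1.09 and past both thresholds, and SUCLG1 was at −0.17 and passed the test (edgeR adjusted p = 0.0362).

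Levels of different genes were compared as CPM on the TMM-scaled library size, divided by the length in kilobases of the canonical transcript in GENCODE v44. The order of genes depends on the length used, and which transcripts these cells express was not examined. FH has 1791 bases in its canonical transcript and 9350 in all its annotated exons. For SUCLG1 these are 1270 and 4162, and for IDH2 2658 and 2787. On this scale CS was the most abundant of the 9 in both groups, with 67.8 ± 0.538 in siControl and 57.0 ± 4.47 in siPVT1, and PC the least, at 3.77 ± 0.134 and 6.52 ± 1.41 (SD, n = 3 each). In siControl the order of levels was CS, SUCLG1, MDH2, FH, OGDH, PDHA1, IDH3A, IDH2 and PC, and of neighbours in it MDH2 and FH alone overlapped in their libraries. In siPVT1 the order was CS, MDH2, SUCLG1, OGDH, PDHA1, IDH2, FH, IDH3A and PC. Here 4 pairs of neighbours overlapped, MDH2 with SUCLG1, OGDH with PDHA1, IDH2 with FH and IDH3A with PC. IDH2 went from 8.88 ± 0.664 to 22.7 ± 2.97 on this scale, and FH from 33.3 ± 2.67 to 20.1 ± 3.78, so that they no longer lay apart. IDH3A went from 13.4 ± 1.09 to 7.18 ± 1.53 and came to lie near PC (SD, n = 3 each).

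**Figure D3:**
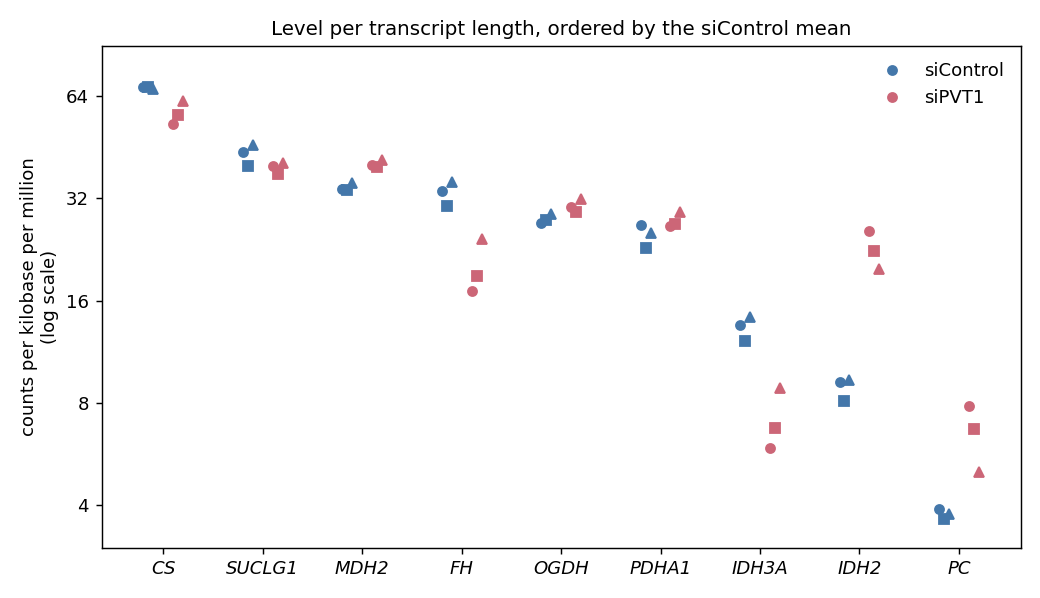
CPM on the TMM-scaled library size per kilobase of transcript (y axis, log scale) of the 9 genes in siControl (blue) and siPVT1 (red) libraries, ordered by the siControl mean; symbols are as for the plot of the 9 genes. CS is highest and PC lowest in both groups, and IDH2 lies below IDH3A in siControl and above it in siPVT1.

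Among 52 other genes of the pathway, 51 were tested, of which 18 rose, 20 fell and 13 did not pass the test, against 29.5% that rose and 28.4% that fell over all genes tested. Past both thresholds were 8 as higher and 4 as lower, against 11.8% and 9.64% of all genes. In 40 of the 51 (78.4%) the groups did not overlap, against 65.6% of all genes. The remaining gene had too few counts to be tested. The median log2 fold change of the 51 genes was 0.02, again near 0, and the median size of the change was 0.48, against 0.51 over all genes tested and 0.25 over the 9 members.

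Lipoic acid is the cofactor attached to DLAT and DLST. Of the 3 genes of its synthesis 2 fell, where 28.4% of all genes tested did. LIAS, the lipoyl synthase, had 433, 438 and 463 normalized counts in siControl and 192, 205 and 183 in siPVT1 (log2 fold change −1.20, edgeR adjusted p = 1.51e-05). LIPT1 was at −0.55 (edgeR adjusted p = 0.00631). LIPT2, which had few counts, rose from 32.4 ± 4.97 to 68.0 ± 0.617 (SD, n = 3 each; log2 fold change 1.07, edgeR adjusted p = 0.00146).

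Of the 10 tested genes of glutamine and other side entries, 4 fell, 1 rose and 5 did not pass the test. Over all genes tested, 28.4% fell and 29.5% rose. PCK2, the mitochondrial enzyme that takes oxaloacetate to phosphoenolpyruvate, was at −1.23 (edgeR adjusted p = 6.35e-05). GLUD1, which turns glutamate into 2-oxoglutarate, was at 0.02 with a 95% interval from −0.11 to 0.15 (edgeR adjusted p = 0.786). The gene of this list that rose was PCCA, with a log2 fold change of 0.99 (edgeR adjusted p = 0.000384). PC, which also supplies oxaloacetate but is counted among the members, was higher as given above.

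Of the 6 cytosolic counterparts, 4 rose and 2 fell, where 29.5% and 28.4% of all genes tested did. ACLY, which splits citrate in the cytosol into acetyl-CoA for lipid synthesis, rose from 11517 ± 207 to 20378 ± 1517 (SD, n = 3 each; log2 fold change 0.82, edgeR adjusted p = 2.49e-05), and MDH1, the cytosolic partner of MDH2, was at 0.48 (edgeR adjusted p = 0.000496). ME1 and GOT1 fell, with log2 fold changes of −0.69 and −0.76. Among the 5 carriers, the citrate carrier SLC25A1 rose, with a log2 fold change of 0.96 (edgeR adjusted p = 3.77e-05), and 3 fell. SLC25A10, the dicarboxylate carrier, had 274, 238 and 232 normalized counts in siControl and 70.0, 76.3 and 75.9 in siPVT1, the lowest log2 fold change of the pathway lists at −1.74 (edgeR adjusted p = 1.05e-05). SLC25A1 and ACLY, which export and split citrate, were higher while CS, which makes citrate, was lower.

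**Figure D4:**
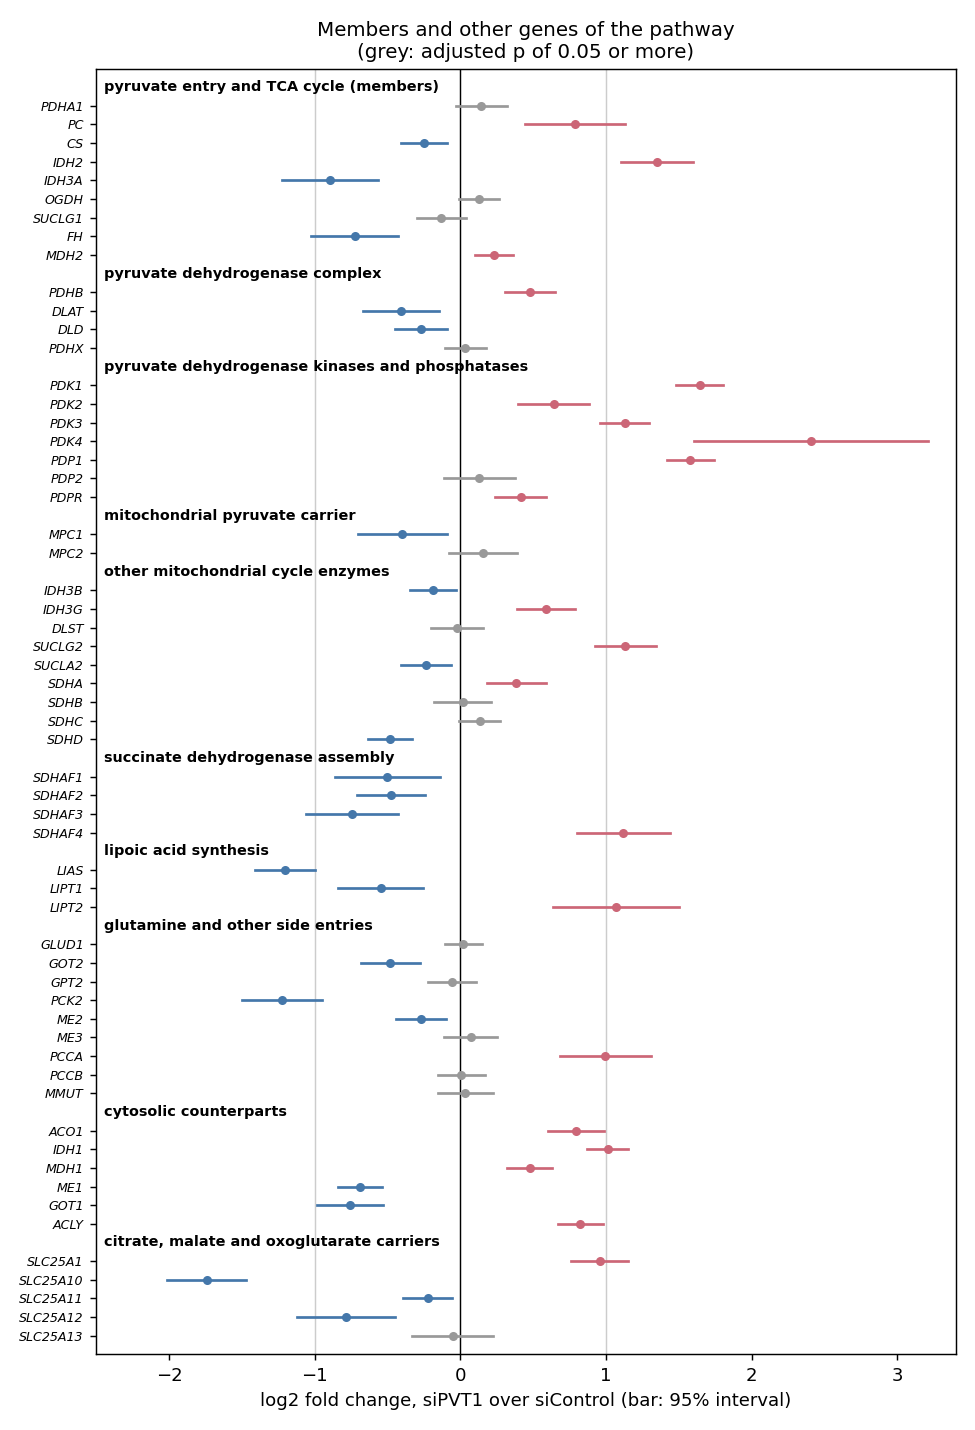
Log2 fold change of siPVT1 over siControl (x axis) with its 95% interval for the 9 members and 49 tested genes of the pathway lists, in red where higher, in blue where lower and in grey where the adjusted p was 0.05 or more; vertical lines mark changes of −1, 0 and 1. Among the kinases and phosphatases 6 of 7 are red, and in each other group of 3 or more genes some lie on each side of 0.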

How the data were processed

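RNA of SK-OV3 cells was measured in 6 libraries, 3 of siControl and 3 of siPVT1, grouped by their labels. The authors aligned single-end reads of mRNA libraries with STAR 2.7.3a to the GENCODE transcriptome of GRCh38.p13, quantified them with Salmon 0.14.1 (versions from the submitters' processing notes), and deposited a table of estimated counts, whole and not normalized, by gene symbol. Whether counting used strand is not given in the sources used here. All columns matched a sample. Counts were used as deposited.

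The fit used edgeR 4.0.16 under R 4.3.3 (TMM, quasi-likelihood test, siRNA as the only term) and took in the 19008 genes that reached 5 normalized counts in 3 or more libraries. P-values were adjusted over these by the method of Benjamini and Hochberg. Standard errors are log2 fold changes over the root of the F statistic, and intervals are at 95%. The members and lists were chosen with earlier results of these data known. Named are all members, each listed gene past both thresholds and, in lists without one, that with the smallest p, the highest and lowest markers, PVT1 and MYC; further genes were named after their values were seen. Some listed genes that were counted are not reported here by name. Transcript lengths and overlaps came from GENCODE v44, promoter windows from RefSeq (GRCh38.p14). Scripts were tested on simulated data.

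Alternatives were the DESeq2 1.42.0 test, DESeq2 size factors within edgeR, total-count scaling, no low-count filter, filterByExpr, a block for the replicate number, leaving out each library, and a test against a 2-fold change.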

Additional observations from a re-analysis of the deposited data

How the results depend on the processing

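With scaling by the total count, 2 members rose and 4 fell in place of 3 and 3, 1 in place of 0 (IDH3A) was past both thresholds as lower, and 3 in place of 8 of the other pathway genes were past both as higher. Leaving out 1 library at a time, 3 members rose, 3 to 4 fell, 1 was past both thresholds as higher and 0 to 1 as lower (IDH3A, without siPVT1 replicate 3). Of the other pathway genes, 18 to 19 then rose, 13 to 22 fell (13 in place of 20 without siControl replicate 1), 7 to 8 were past both as higher and 4 as lower. A test against a 2-fold change called 1 member. The cause of these shifts was not tested.

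Over the 12 alternatives, log2 fold changes of IDH2 lay from 1.202 to 1.42, of IDH3A from −1.09 to −0.78, of FH from −0.90 to −0.64, of PC from 0.62 to 0.93 and of CS from −0.40 to −0.21, each with an adjusted p under 0.05. Without a low-count filter, 17 in place of 20 other pathway genes fell, and MPC1 and IDH3B were among those that lost their calls (edgeR adjusted p = 0.0508 and 0.105).

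Deviations of same-numbered libraries from their group means correlated at −0.03, 0.02 and 0.001, and not every library correlated best with its own number. These values show no variation shared by replicate number, but cannot say whether libraries were paired in the experiment. With the replicate number as a block, 10446 in place of 11007 genes had an adjusted p under 0.05, still 3 members rose and 3 fell, 18 in place of 20 other pathway genes fell, and MPC1 and IDH3B were among those that lost their calls (edgeR adjusted p = 0.0643 and 0.0870).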
